A study of Homo sapiens with 16 samples.

Results

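HDAC3 occupancy was compared between LNCaP prostate cancer cells that carried a control hairpin and LNCaP cells in which HOXB13 was lowered. LNCaP is an androgen-sensitive cell line derived from a metastasis of a prostate tumour. Both groups were infected for 7 days, the control with the pGIPZ vector (control shRNA) and the other with shHOXB13, a short hairpin RNA against HOXB13. HDAC3 was immunoprecipitated with the same antibody in both, and each group held 1 library. The labels name 1 hairpin against HOXB13. All HDAC3 peaks were taken: 33964 in the control and 30993 after knockdown, 64957 of the 816313 peaks in the 12 lists that were analysed from the 16 samples of the series. A peak was counted as shared when it overlapped a peak of the other HDAC3 library by 1 bp or more. Control peaks are called retained when shared and lost when not, and knockdown peaks without a control peak are called new. "New" and "lost" describe the 2 lists and not tested changes. With 1 library per group no test between conditions was possible, and the 95% intervals below reflect counting error or how peaks vary among themselves, and say nothing of the variation between cultures.

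HDAC3 is a class I histone deacetylase that acts as the enzyme of the NCOR and SMRT corepressor complexes, which transcription factors bring to DNA. HDAC1 belongs to the same class and works in other complexes, such as NuRD, SIN3 and CoREST. HOXB13, a homeodomain protein expressed in the prostate epithelium, is a transcription factor that binds, among other sites, enhancers shared with the androgen receptor and FOXA1. ATAC-seq marks DNA that a transposase can reach, that is, open chromatin. The other lists used here to describe HDAC3 sites were HDAC1 of control LNCaP, HOXB13 of LNCaP (control, shHOXB13, and shHOXB13 with lentiviral HOXB13-WT or HOXB13-G84E), ATAC-seq of LNCaP (control and shHOXB13), and HOXB13 and H3K27ac of PC-3, an androgen-independent prostate cancer line. H3K27ac is an acetylated histone mark of active promoters and enhancers and a substrate of HDAC3. The hg19 coordinates are those of the files. The nearest genes and the DNA sequence of the sites were not analysed here.

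The libraries differed in ways that bear on every comparison. The control library held 21.6 M tags (M for mega) and the knockdown library 26.3 M, of which 73.1% and 60.6% were left at 1 tag per position. Peaks had a fixed width, 471 bp for the control library and 365 bp for the knockdown, with estimated fragment lengths of 146 and 364 bp. Peaks held 7.63% of the control tags and 5.08% of the knockdown tags. The median peak had 15.3 normalized tags (tags per 10000000) in the control and 11.8 after knockdown. Per unit of length the lists were close: the median density was 32.5 normalized tags per kb in the control and 32.3 after knockdown. Density, in normalized tags per kb, is the measure of HDAC3 signal below. The shHOXB13 cells had 22864 HOXB13 peaks against 91430 in the control. Hairpin and library coincide, so the part of HOXB13 in any HDAC3 difference cannot be told apart from that of these library features.

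The lists shared 47.7% of the control and 52.2% of the knockdown HDAC3 peaks. In the control list 16184 peaks (47.7%, 95% CI 47.1 to 48.2) had a knockdown peak and 17780 (52.3%) were lost. Of the knockdown peaks, 14809 (47.8%, 95% CI 47.2 to 48.3) were new. Every retained control peak met exactly 1 knockdown peak, so the 16184 pairs are one-to-one. The retained peaks were the denser ones, with a median of 40.3 tags per kb in the control against 27.6 at lost peaks, and 38.6 in the knockdown against 28.2 at new peaks. The retained peaks held 63.4% of the tags in control peaks. Unshared peaks stood less far above their surroundings too. The authors' fold over the local background was 5.89 at the median lost peak against 7.15 at retained peaks of the control list, and 5.71 at the median new peak against 6.82 at retained peaks of the knockdown list.

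Whether a peak was shared followed its strength closely in both lists. When the control peaks were put into 10 equal groups by density, 19.9% (95% CI 18.6 to 21.3) were retained in the weakest group, whose median was 18.7 tags per kb. In the densest group, with a median of 84.7 tags per kb, 86.0% (84.7 to 87.1) were retained. The knockdown list ran the same way, from 27.1% shared in its weakest group to 88.4% in its densest. Many unshared peaks were close to the calling limit. A deposited score under 2 times the tag threshold of their library was found for 86.5% of lost and 51.2% of retained peaks of the control list, and for 93.7% of new and 66.7% of retained peaks of the knockdown list. The threshold itself was 16 tags in the control and 14 after knockdown.

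**Figure D1:**
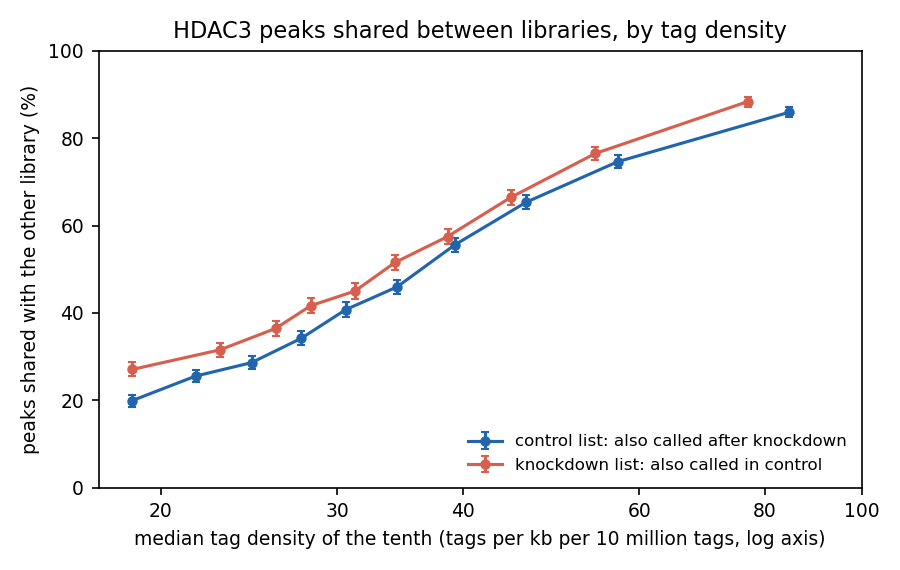
Share of HDAC3 peaks found in the other library (y axis, percent, with Wilson 95% intervals) for 10 equal groups of tag density (x axis, normalized tags per kb, log scale), for the control and the knockdown list. The control list climbs from 19.9% to 86.0% and the knockdown list from 27.1% to 88.4%.

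Some lost and new peaks had a neighbour of the other library that did not touch them. A knockdown peak lay within 1 kb of 9.28% of lost peaks (1650) and within 10 kb of 33.0%. A control peak lay within 1 kb of 12.6% of new peaks (1863) and within 10 kb of 41.7%. The median distance to the nearest peak of the other library was 19.3 kb for lost peaks and 13.7 kb for new ones.

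The centres of the control and knockdown peak of a pair lay a median of 116 bp apart (quartiles 51 and 204 bp), and 44.7% were within 100 bp. Pairs were closer in the densest control group (median 92 bp) than in the weakest (125 bp). For comparison, the centres of control and knockdown ATAC peaks that overlapped, which are narrower and so must lie nearer to overlap, were a median of 32 bp apart. HDAC3 centres lay a median of 90 bp from overlapping HOXB13 centres and 145.5 bp from overlapping HDAC1 centres in the control. At the retained HDAC3 sites with ATAC signal in both conditions, the control HDAC3 centre was a median of 74 bp from the control ATAC centre (7538 sites). The knockdown HDAC3 centre was 101 bp from the knockdown ATAC centre (6107 sites where the knockdown HDAC3 peak itself met one). HDAC3 peaks were thus placed less closely around the open site in the library with the longer estimated fragments, and the part of fragment length in this was not tested.

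Some HDAC3 peaks appeared in none of the other 10 lists analysed. Of retained control peaks, 10.0% (1619) were of this kind, against 28.8% (5112) of lost and 42.5% (6295) of new peaks. The reverse held for regions called in 9 or more of the 12 lists, which made up 16.3% of retained, 1.41% of lost and 0.750% of new peaks. The 12 lists include both HDAC3 lists, and only a retained peak is in both. Part of this second contrast is therefore given by the definition of the classes. Seen from the other side, of the 6731 control peaks that were in none of the other 10 lists, 24.1% (23.1 to 25.1) were retained. Of the 8210 knockdown peaks of that kind, 76.7% (75.8 to 77.6) were new. Most HDAC3 peaks found in none of those 10 lists were thus called in 1 HDAC3 library only.

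At the retained sites HDAC3 density was on the whole similar in both libraries. The median log2 ratio of density, knockdown over control, was −0.074 (95% CI −0.085 to −0.065), with quartiles of −0.43 and 0.27. Ratios of −1 or below, a 2-fold lower density after knockdown, were found at 819 sites (5.06% of the retained), and ratios of 1 or above at 348 (2.15%). The SD of the ratios was 0.56, against 0.33 expected from counting error if every tag is independent. With 73.1% of control and 60.6% of knockdown tags left at 1 per position, duplicates were counted in this, so 0.33 is a lower limit. The excess spread has no replicate to be set against.

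The direction of the median rests on the scale. On normalized tag counts not divided by peak width it was −0.44, with 2444 sites at −1 or below and 67 at 1 or above. With tags scaled to those lying in peaks it was 0.51, with 138 and 2752 such sites. Centred on the median, 656 sites were at −1 or below and 479 at 1 or above. Of all sites past 2-fold, the lower ones made up 70.2% by density, 97.3% by tag count, 4.78% with tags scaled to peaks and 57.8% after centring. Ratios of single classes below are therefore to be read against the median of all retained sites, a difference that no common scaling alters.

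Ratios differed with the strength of a site. Sites were put into 10 equal groups by the geometric mean of their densities, which treats both libraries alike. The median log2 ratio was 0.0027 in the weakest group and −0.19 (−0.22 to −0.16) in the strongest. Ratios of −1 or below made up 0.988% of the weakest group and 11.5% (10.0 to 13.1) of the strongest. In the strongest group the SD of the ratios was 0.69, against 0.21 from counting error, again a lower limit because duplicate tags were counted. In the weakest group both peaks of a pair had to pass the calling threshold while their mean was low, which limits the ratios a pair can have, so nothing is read from the spread or the few 2-fold differences there.

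**Figure D2:**
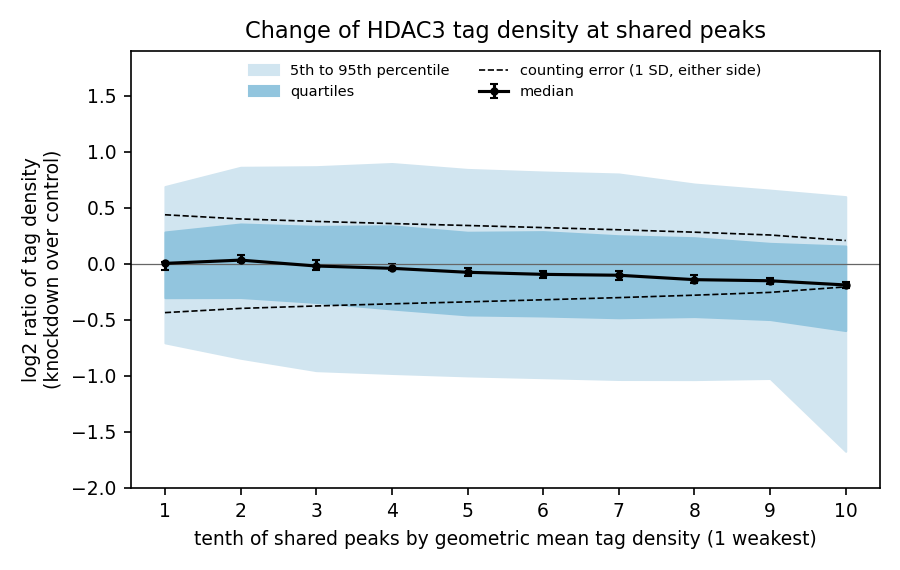
Log2 ratio of HDAC3 density, knockdown over control, at the 16184 retained sites in 10 equal groups of geometric mean density. The medians move from 0.0027 in the weakest group to −0.19 in the strongest, and the share of sites at −1 or below grows from 0.988% to 11.5%.

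The densest HDAC3 sites divided into those with little difference and those with a large deficit after knockdown. Among the 100 strongest retained sites on the autosomes and X, the median log2 ratio was −0.038 with quartiles of −1.97 and 0.23. Of these, 41 were at −1 or below, 2 were at 1 or above, and 60 were regions called in 9 or more lists. Among the 100 strongest sites in fewer than 9 lists the median was −1.39 (−1.74 to −0.57), with 57 at −1 or below and 5 at 1 or above. Of those 100 sites, 58 also had an HDAC1 peak, 61 a control ATAC peak and 25 a control HOXB13 peak. The deficit was narrower further down: the strongest 500 of this kind had a median of −0.28, with 96 at −1 or below. This count of extremes covers sites selected on the densities themselves and is a description. Duplicate tags were counted in these densities, and their part in the deficit was not tested.

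The 65 sites with a log2 ratio of −2 or below were much denser in the control than the other retained sites. Picking sites for a low ratio of called peaks favours a high control signal. Their control density, and the control fold and focus ratio that go with it, are therefore descriptions of selected sites. Their median density was 470.7 tags per kb in the control and 77.0 after knockdown. Within the control list, the authors' fold over the local background had a median of 55.2 at these sites and 7.04 at sites with ratios between −1 and 1. Within the knockdown list the medians were 10.6 and 6.8. The focus ratio, which HOMER gives as the share of tags lying where a single binding site would place them, had medians of 0.937 and 0.721 within the control list, and 0.775 and 0.727 within the knockdown list. Among them 78.5% were at an ATAC peak and 58.5% at HDAC1, against 58.1% and 32.7% of sites with ratios between −1 and 1. A control HOXB13 peak was present at 29.2%, against 37.8%. These shares are not compared at equal density. Among the 500 strongest retained sites, 354 had an ATAC peak, 331 an HDAC1 peak and 266 a control HOXB13 peak. The 751 sites between −2 and −1 were otherwise: their median density was 69.9 tags per kb in the control and 29.0 after knockdown, and 48.6% had a control HOXB13 peak. The 342 sites at 1 or above had 23.6 tags per kb in the control and 56.2 after knockdown. A control HOXB13 peak was present at 30.1% of these and a HOXB13 peak of the knockdown library at 16.1%, against 9.46% of sites with ratios between −1 and 1. These 4 classes cover the autosomes and X.

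**Figure D3:**
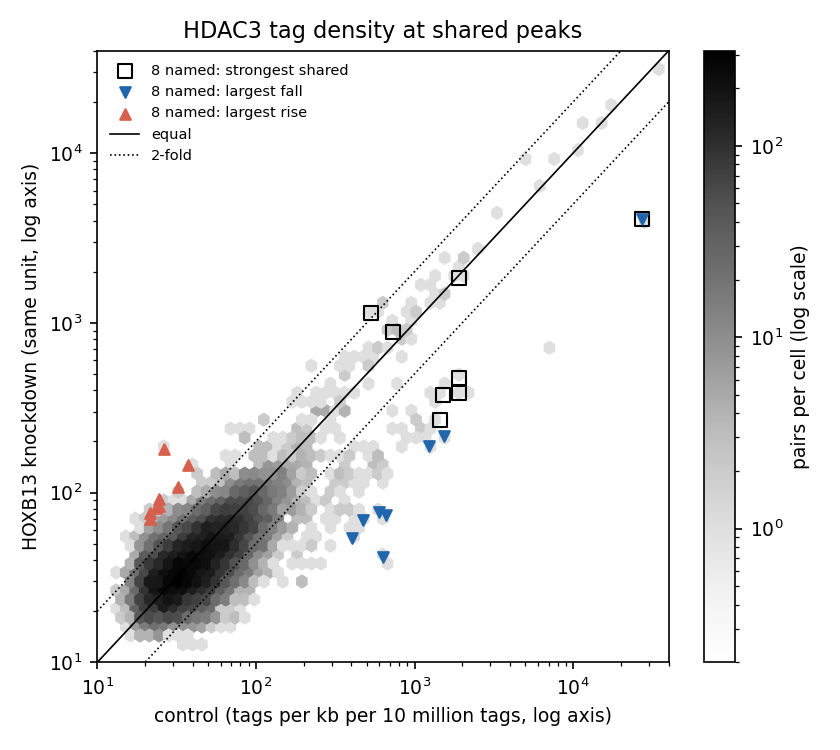
HDAC3 density in the control (x axis) and after knockdown (y axis), in normalized tags per kb on log axes, at the retained sites, with the 8 largest differences in each direction marked. Most sites lie along the diagonal, and a group of sites that are dense in the control lies well below it.

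Single regions show both patterns. They were taken from 2963 pairs on the autosomes and X in 8 or fewer lists, with centres within 100 bp and a geometric mean density of at least 37.9 tags per kb, the median of such pairs. Of these 2963 pairs, 8.03% were at −1 or below and 2.30% at 1 or above. Since the extremes were picked, the exact (Clopper-Pearson) intervals of their ratios are too narrow for a chosen region. They also treat duplicate tags as independent, and the part of duplicates in these ratios was not tested.

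The largest deficit was at chr16:1524825-1525295, with 636.9 tags per kb (647 tags) in the control and 41.6 (40 tags) after knockdown, a log2 ratio of −3.94 (−4.43 to −3.47). The centres of its peaks were 3 bp apart, and HDAC1, control ATAC and PC-3 H3K27ac peaks lay there. The region chr17:80454917-80455387 had 662.6 tags per kb in the control and 74.0 after knockdown (−3.16), and chr3:158519592-158520062 had 600.6 and 77.0 (−2.96). Both were occupied by HDAC1 too and had control ATAC and PC-3 H3K27ac peaks. The regions chr16:88923269-88923739 (473.7 and 68.8 tags per kb) and chr11:126081387-126081857 (1240.6 and 187.4 tags per kb) had these partners as well, the second with a PC-3 HOXB13 peak in addition. ATAC was called in both conditions at these 2 and at chr3:158519592-158520062. In contrast, chr15:21218250-21218720 (405.7 and 54.3 tags per kb) and chr13:111704193-111704663 (1534 and 214.5 tags per kb) were in no list but those of HDAC3. The control peaks of chr13:111704193-111704663 (1558 tags) and chr11:126081387-126081857 (1260 tags) held more tags than 1 per position on both strands allows. The last of the 8, chr17:72510457-72510927, was by far the densest, with 27044.2 tags per kb in the control and 4089.6 after knockdown. Most of its tags must be duplicates, with 27467 tags in 471 bp in the control and 3927 in 365 bp after knockdown. It had HDAC1 and PC-3 H3K27ac peaks and HOXB13 peaks of the WT, G84E and PC-3 libraries.

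None of these 8 regions had a HOXB13 peak in the control or the knockdown library of LNCaP, although 1 had HOXB13 with WT and G84E and 2 had HOXB13 in PC-3, while 5 had a control ATAC peak and 6 an HDAC1 peak. Among all 2963 pairs, 30.5% had a control HOXB13 peak, 67.2% a control ATAC peak and 41.0% an HDAC1 peak.

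The 8 largest excesses after knockdown were weaker sites with other partners. At chr11:74456840-74457310 HDAC3 had 26.5 tags per kb (27 tags) in the control and 181.1 (174 tags) after knockdown, a log2 ratio of 2.77 (2.18 to 3.41). HOXB13 was called there in the control, after knockdown and with G84E. At chr17:19349472-19349942 the densities were 37.4 and 144.7 tags per kb (1.95, 1.43 to 2.51), with an HDAC1 peak and HOXB13 peaks in all 4 LNCaP libraries. The other 6 were chr22:32435378-32435848 (1.9), chr5:55800413-55800883 (1.81), chr9:38362851-38363321 (1.78), chr5:33162259-33162729 (1.76), chr19:24010211-24010681 (1.72) and chr3:188906183-188906653 (1.69), given with their log2 ratios. A control HOXB13 peak lay at 6 of the 8 and a HOXB13 peak of the knockdown library at 5. A control ATAC peak lay at 1 and PC-3 H3K27ac at none. Among all 2963 pairs 10.8% had a HOXB13 peak of the knockdown library and 47.2% PC-3 H3K27ac. With 8 regions picked for their ratios, these counts are descriptions.

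The 8 strongest pairs by geometric mean included 5 with a deficit after knockdown: chr17:72510457-72510927 (above), chr1:154531108-154531578 (1911 and 388.5 tags per kb), chr15:72668141-72668611 (1895.3 and 473.7), chr7:4814995-4815465 (1520.2 and 374.0) and chr11:65479232-65479702 (1443.5 and 268.8). These 5 held from 1466 to 27467 control tags in 471 bp, more than 1 tag per position on both strands allows, so duplicates were counted. One pair differed in the other direction. At chr13:110076355-110076825 HDAC3 had 528.7 tags per kb in control cells and 1147.7 in shHOXB13 cells (log2 ratio 1.12, 0.97 to 1.27), with centres 1 bp apart, an HDAC1 peak and HOXB13 peaks in all 4 LNCaP libraries. At tag counts not divided by width its ratio was 0.75. The remaining pair of regions, chr11:51582715-51583185 and chr16:46412860-46413330, had log2 ratios of −0.059 and 0.26. They stood only 5.63-fold and 4.36-fold above their surroundings in the control.

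The strongest peaks called in 1 library alone were partly neighbours of peaks in the other. The densest control-alone peak, chr17:22261330-22261800 (887.0 tags per kb), lay 74 bp from a knockdown-alone peak, chr17:22260892-22261256 (844.7 tags per kb). At chrX:61718508-61718978 (225.5 tags per kb, control) and chrX:61719595-61719959 (289.6 tags per kb, knockdown) the gap was 617 bp. The control-alone peak at chr7:64895225-64895695 (289.4 tags per kb) lay 160 bp from a knockdown peak. Others had no near counterpart. The nearest knockdown peak was 23092 bp from chr8:102596824-102597294 (497.2 tags per kb, 39.4-fold above its surroundings), 4679 bp from chr19:1169786-1170256 (384.1 tags per kb) and 24277 bp from chr1:173445951-173446421 (200.8 tags per kb). ATAC peaks of both conditions lay at the last 2 of these. Other control-alone peaks stood little above their surroundings. These were chr17:22261330-22261800 (5.39-fold), chr9:68419225-68419695 (5.38-fold), chrX:61718508-61718978 (4.51-fold) and chrX:114968520-114968990 (4.05-fold).

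Of the 8 strongest knockdown-alone peaks, 5 lay within 1 kb of a control peak. These included the densest, chr1:566253-566617 (4021.9 tags per kb, 733 bp away), and chr11:51579426-51579790 (2229.6 tags per kb, 498 bp away). The region chr6:58779010-58779374 (1652.6 tags per kb) had its nearest control peak 491043 bp away. All 8 had PC-3 H3K27ac regions, none had an HDAC1 peak, and all stood between 4.13-fold and 9.1-fold above their surroundings. Among all new peaks, 25.03% met PC-3 H3K27ac of the control and 7.31% HDAC1, so the absence of HDAC1 at 8 regions says little. These regions were picked for their density. Satellite sequence stayed in the lists, and its part in the overlap with PC-3 H3K27ac was not tested. No knockdown HDAC3 peak was on the mitochondrial sequence, where the control had a peak of 16638.9 normalized tags at chrM:15961-16431.

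Retention differed with the other features of a site, also beside peaks of the same density groups. These groups rest on 1 library with a median of 33 tags per control peak, so they may not match strength fully. Control HDAC3 peaks were divided by overlap with control HOXB13, HDAC1 and ATAC peaks, and the retention of each class was set beside that of all control peaks with the same make-up of the 10 density groups. HDAC3 peaks with none of these (12276) were retained at 29.5% (28.7 to 30.3), against 37.3% at the same densities. With HOXB13 as the only partner (6102), 33.8% (32.7 to 35.0) were retained, against 41.1%. With ATAC alone (4124) it was 60.4% against 52.4%, and with HDAC1 alone (1329) 61.2% against 51.0%. With ATAC and HDAC1 (3989) it was 77.0% (75.7 to 78.3) against 64.5%. With all of HOXB13, ATAC and HDAC1 (1403) it was 86.2% (84.3 to 88.0) against 71.0%. In the control list the class with HOXB13 alone was thus below the level of its densities, as were sites with no partner, and each class with ATAC or HDAC1 was above it.

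In the knockdown list the extremes were the same classes. Of 14369 knockdown HDAC3 peaks with none of these control partners, 69.6% (68.9 to 70.4) were new, against 55.0% at the same densities. Of those with HOXB13 as the only partner (4236), 47.3% (45.8 to 48.8) were new, against 52.5%, so this class was below the level of its densities and peaks with no partner were above theirs. With HDAC1 alone (1687) 34.0% were new and with ATAC alone (3468) 30.3%, against 41.1% and 42.4%. Of those with all of them (954), 7.34% (5.85 to 9.17) were new, against 26.4%. A control ATAC peak was met by 14.6% of new and 50.4% of retained knockdown peaks, and an HDAC1 peak by 7.31% and 29.8%.

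**Figure D4:**
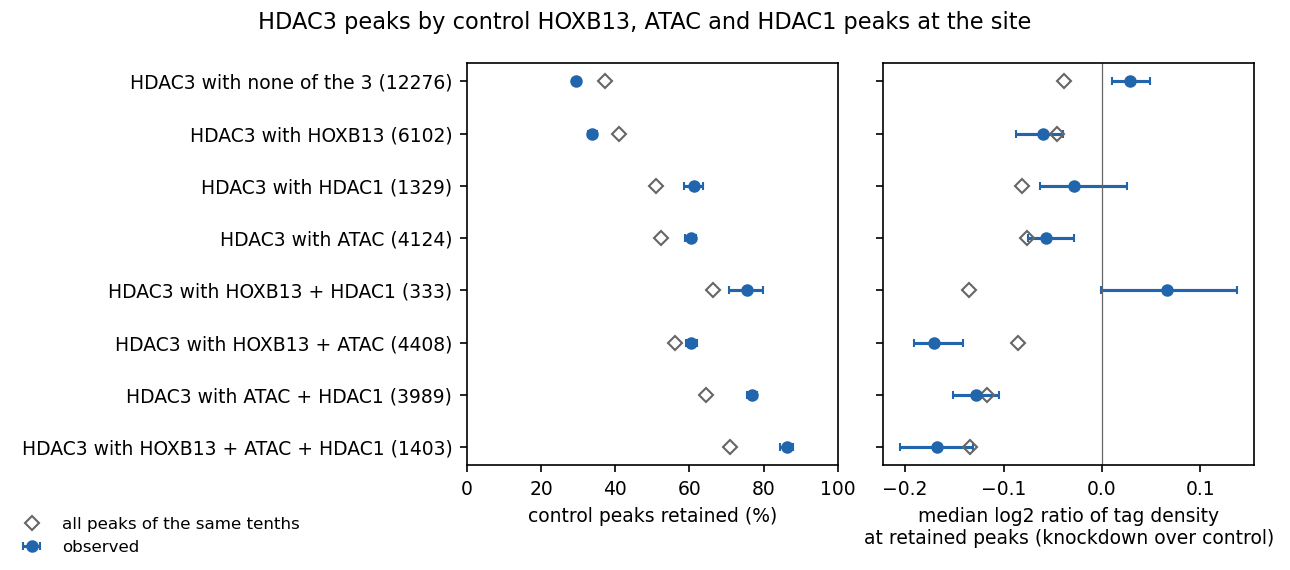
HDAC3 retention (percent of control HDAC3 peaks, with Wilson 95% intervals) by combination of control HOXB13, HDAC1 and ATAC peaks, beside the retention of all control peaks with the same density groups. Retention is 29.5% with no partner and 86.2% with all of them.

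Single partners differed in how much of their difference remained after standardisation for strength. HDAC3 retention was 67.8% with a control ATAC peak and 33.7% without, a difference of 34.1 percentage points (33.1 to 35.1) that was 16.8 after standardisation over 10 groups of control tag count. For HDAC1 it was 75.8% and 40.3%, a difference of 35.5 points (34.3 to 36.7) and 18.0 standardised. For control HOXB13 the difference was 4.57 points (3.46 to 5.67) and −0.13 standardised. The difference for control HOXB13 thus almost vanished after standardisation. Without regions called in 9 or more lists it was −2.05 points (−3.22 to −0.87). That filter counts the knockdown HDAC3 list and so takes out retained peaks more readily than lost ones, and nothing is read from this sign.

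The density ratios at retained sites told HOXB13 classes apart slightly. At sites with a HOXB13 peak in the control alone (5570 retained) the median log2 ratio was −0.13 (−0.15 to −0.12), against −0.078 at the same densities. At sites without HOXB13 in either library (9010) it was −0.041 (−0.057 to −0.028), against −0.072. The difference between these classes was −0.093 (−0.12 to −0.071), which is small beside the SD of 0.56 between sites and has no replicate to be set against. Ratios of −1 or below made up 6.50% of the first class and 4.27% of the second.

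Sites with a HOXB13 peak of the knockdown library were retained more often than their densities give. Where HOXB13 was called in both its control and knockdown libraries (742), HDAC3 was retained at 84% (81.2 to 86.4) of sites, against 68.6% at the same densities. Where it was called in the knockdown library alone (1393), HDAC3 was retained at 70.4% (68.0 to 72.8), against 58.7%. The median log2 ratio was 0.017 (−0.039 to 0.075), against −0.14, in the first class and −0.078 (−0.12 to −0.045), against −0.10, in the second. The filter on regions called in 9 or more lists counts the knockdown HDAC3 list and so takes out retained peaks more readily than lost ones. Many of the 742 are such regions. Without those, retention was 66.7% (61.0 to 71.9), against 56.4%, in the 288 peaks of the first class and 64.7% (61.9 to 67.4), against 55.2%, in the 1149 of the second. The median ratio was then −0.036 (−0.074 to 0.025) in the second class. In the first it was 0.090 (0.041 to 0.20), and 21 of 192 retained sites (10.9%) were at 1 or above, against 3.23% in the second and 1.48% of such sites with HOXB13 in the control alone.

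HDAC3 sites that had HOXB13 in the control but not after knockdown were divided by whether HOXB13 was called again when it was re-expressed. G84E is an amino acid substitution in HOXB13, and both proteins were delivered by lentivirus on top of the hairpin. HOXB13 was called with both proteins at 7825 sites, with WT only at 1490, with G84E only at 673 and with neither at 1516. HDAC3 retention was 47.0% (45.9 to 48.1), 51.7% (49.2 to 54.3), 49.2% (45.4 to 53.0) and 52.4% (49.9 to 54.9), in that order. The median log2 ratio of HDAC3 density at the retained sites was −0.16 (−0.18 to −0.14), −0.11 (−0.15 to −0.060), −0.065 (−0.15 to 0.0084) and −0.090 (−0.13 to −0.055). At the same densities all control peaks gave a retention of 49.6%, 49.3%, 49.3% and 48.7%, and ratios of −0.077, −0.080, −0.081 and −0.080. The ratio was lowest where HOXB13 was called with both proteins. Its interval overlaps those of the WT-only and G84E-only classes but not that of the class with neither. Retention was lowest in the same class, and its interval overlaps that of the G84E-only class alone. No replicate can be set against these small differences. The WT-only and G84E-only intervals overlap in both measures. HDAC3 with the re-expressed proteins was not analysed here.

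ATAC peaks were called again after knockdown more often where HDAC3 was retained than where it was lost. At control HDAC3 peaks with a control ATAC peak, ATAC was called again after knockdown at 79.9% (7538 of 9439) of sites where HDAC3 was retained. Where HDAC3 was lost it was called again at 65.8% (2953 of 4485), a difference of 14.0 percentage points (12.4 to 15.6). The difference was 7.22 points at equal HDAC3 tag count, 6.0 at equal ATAC tag count and 3.78 at both. It was 13.8 points at sites with control HOXB13 and 14.2 at sites without. At control HDAC3 peaks without a control ATAC peak, ATAC was called only after knockdown at 15.8% of sites where HDAC3 was retained and 7.48% where it was lost. That difference was 8.28 points and 4.88 at equal HDAC3 tag count. Retained control HDAC3 peaks thus more often had a knockdown ATAC peak, whether or not ATAC was called in the control. Both differences were smaller at equal strength.

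Unshared HDAC3 peaks more often lacked ATAC than the lists as a whole. No ATAC peak of either condition lay at 69.2% of lost HDAC3 peaks (12300), against 52.9% of all control peaks, and at 80.9% of new ones (11974), against 60.4% of all knockdown peaks. Control HDAC3 peaks were retained at 71.9% (71.0 to 72.7) where ATAC was called in both conditions, 55.4% (53.7 to 57.0) where it was called in the control only, 51.7% (49.5 to 53.8) after knockdown only, and 31.6% (30.9 to 32.3) in neither. At the same densities all control peaks gave 61.6%, 50.6%, 48.9% and 38.8%. The classes with ATAC in 1 condition only differed little from each other, so HDAC3 retention was about as high where ATAC was gained as where it was lost.

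**Figure D5:**
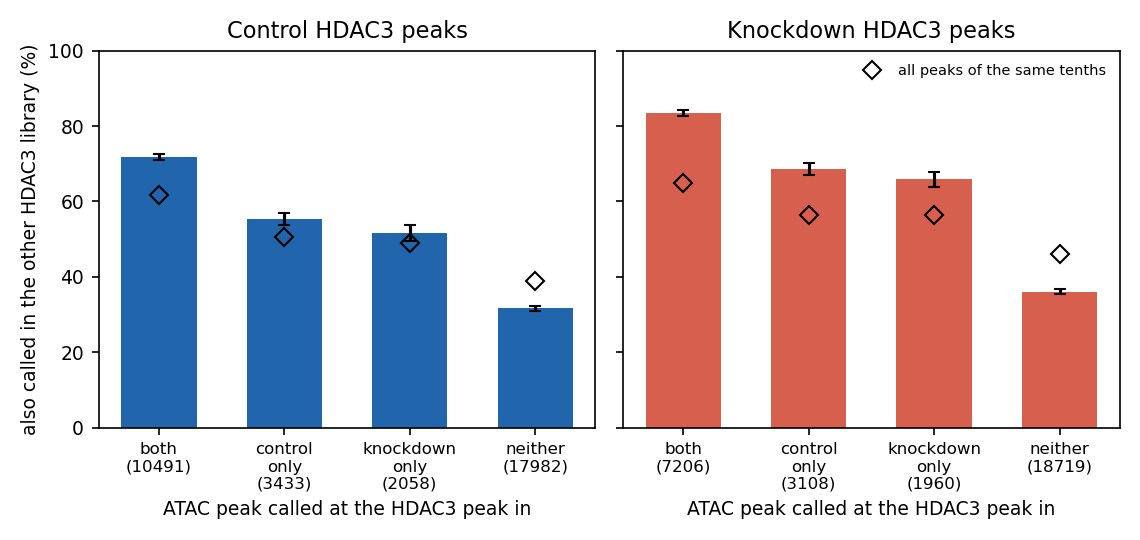
Share of HDAC3 peaks found in the other HDAC3 library (percent, with Wilson 95% intervals) by the ATAC state of the site, for the control and the knockdown list. In the control list it is 71.9% with ATAC in both conditions and 31.6% with ATAC in neither.

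The HDAC3 and ATAC ratios between conditions showed almost no correlation across sites, although control HDAC3 density was higher with ATAC in both conditions (median 46.3 tags per kb) than in neither (27.6). Over the 7538 retained HDAC3 sites with ATAC in both conditions, the log2 ratios of the 2 assays had a Pearson r of 0.00047 and a Spearman rho of 0.0014. Each ratio compares the same libraries at every site, and sites are not independent replicates, so no p-value is given. The median ATAC peak held only 19 tags in the control list and 15 in the knockdown list. Counting error in ratios of so few tags lowers a correlation, and the need for a call in both conditions limits the ratios. Nothing is therefore read from these values about whether the assays change together. In the 20% of sites with the lowest ATAC ratios (median −0.65) the median HDAC3 ratio was −0.15, and in the 20% with the highest (median 0.48) it was −0.12.

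HDAC3 sites that carried chromatin marks in the other cell line were retained more often in LNCaP. Of control HDAC3 peaks within PC-3 H3K27ac regions 64.4% were retained, against 38.8% of the rest, a difference of 25.7 points (24.6 to 26.7) and 10.9 standardised. With PC-3 H3K27ac and LNCaP ATAC together (7641) retention was 75% (74.0 to 75.9), against 64.7% at the same densities. With PC-3 H3K27ac and no LNCaP ATAC (4135) it was 44.9% (43.4 to 46.5), against 46.5%. With neither (15905) it was 30.7% (30.0 to 31.5), against 38.1%. Among sites without an ATAC peak in control LNCaP, retention was thus higher where PC-3 carried the mark. HDAC3 peaks that met HOXB13 in PC-3 but not in control LNCaP (4077) were retained at 63.5% (62.0 to 64.9), against 55.1% at the same densities. Those with HOXB13 in LNCaP only (6992) were retained at 45.4% (44.3 to 46.6), against 47.0%. H3K27ac of LNCaP was not analysed here.

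Chromosomes differed moderately. Retention ran from 41.9% (39.3 to 44.5) on chromosome 4 to 57.2% (54.4 to 59.8) on chromosome 19, where all control peaks at the same densities gave 53.8% and where 52.9% of control HDAC3 peaks had ATAC, the highest share of any chromosome. Chromosome 21, at 42.0% (37.4 to 46.7), was the farthest below the level of its densities, 49.4%. New peaks made up 35.3% of knockdown peaks on chromosome 19 and 53.5% on chromosome 13. Over 535 windows of 1 Mb with at least 20 control peaks the median retention was 52%, with 33.3% and 70.1% at the 5th and 95th percentiles. The lowest window, chosen after its value was seen, was chr15:86000001-87000000, where 4 of 22 control peaks were retained (18.2%, 7.31 to 38.5). Among the highest was chrX:48000001-49000000, with 18 of 20 (90%, 69.9 to 97.2). Shares of so few peaks vary widely by counting error alone, and whether windows differ beyond that was not tested.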

How the data were processed

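The peak lists of HDAC3, HDAC1, HOXB13 and ATAC-seq from LNCaP, and of H3K27ac and HOXB13 from PC-3, were used, with 1 library per group, grouped by the labels. LNCaP H3K27ac was not analysed here. Bowtie2, HOMER 4.2 and hg19 are named in the submitters' processing notes. Peaks were called per library with HOMER findPeaks, without an input control, a false discovery rate of 0.001, and a 4-fold excess over the surrounding 10000 bp at a p-value of 0.0001, per the file headers. The deposited signal is the normalized tag count (tags per 10000000). The deposited score, fold over the local background (a ratio) and focus ratio (a fraction) are the authors' values for each peak. They were used to describe, rank or filter peaks within a list, and are compared only between peaks of 1 library.

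Density is the normalized tag count divided by the peak width. Whole tags were recovered from the library totals (100% of HDAC3 values within 0.15 tags), with a median of 33 tags per control and 31 per knockdown peak. HDAC3 peaks of the 2 libraries were paired by overlap. For partner lists an overlap of 1 bp or more counted too. Shares have Wilson, differences Newcombe and medians exact order-statistic 95% intervals, and ratios at named regions exact (Clopper-Pearson) ones. The level at the same densities is the value of all peaks, weighted to the class's make-up of 10 equal density groups. The calculations, tested on simulated data, used Python 3.11.15, numpy 2.4.6, pandas 2.3.3, scipy 1.17.1, statsmodels 0.14.6 and matplotlib 3.10.9.

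The compared groups, classes and alternatives were chosen with earlier results of these data known. Named regions followed 1 rule: on the autosomes and X, in 8 or fewer of the 12 lists, with centres within 100 bp and a density at or above the median of such pairs, the 8 largest differences in each direction. The 8 strongest such pairs and the 8 strongest peaks called in each library alone were added. Gene lists, gene starts, prostate cell markers and a motif search had been planned for an hg19 annotation and genome, which were not used here. No excluded regions are recorded in the headers, so satellite and mitochondrial sequence stayed in the lists. Alternatives changed the overlap rule, the lists, the sequences, the scale and the weighting for strength.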

Additional observations from a re-analysis of the deposited data

How the results depend on the processing

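No paired analysis was possible because each group held 1 library. Of 62 alternative values for the main measures, 20 moved by less than their interval, 38 by more and 4 changed sign. Of 32 for the other measures, 25 and 7 did so. The retained share of control HDAC3 peaks was 21.3% with centres within 100 bp, 38.8% where 50% or more of the shorter peak had to be covered, 55.1% in the better-scoring 50% of both lists, 48.7% above a common density floor, 50.6% with equal numbers of peaks and 43.1% without regions called in 9 or more lists. The new share of knockdown peaks was 76.6%, 57.5% and 39.7% under the first 3 of these, 49.4% with equal numbers and 53.5% without regions in 9 or more lists. The median log2 ratio was −0.12 in the better-scoring 50%, −0.092 with equal numbers, −0.058 without regions in 9 or more lists, −0.44 by tag count, and 0.51, the opposite sign, with tags scaled to those in peaks. The difference in HDAC3 retention by ATAC was 13.4 points with centres within 100 bp, 29.1 with 50% overlap, 25.8 in the better-scoring 50%, 32.1 with equal numbers, 28.7 without regions in 9 or more lists and 16.8 standardised for strength. For HDAC1 these were 20.9, 31.3, 31.1, 33.4, 30.1 and 18.0 points. For HOXB13 the difference was 3.23 points with equal numbers and of the opposite sign at −3.17 in the better-scoring 50% and −2.05 without regions in 9 or more lists. Standardised for strength it was −0.13, almost no difference. The difference in ATAC retention was 3.86 points with centres within 100 bp, 10.2 with 50% overlap, 11.9 in the better-scoring 50% and 11.2 without regions in 9 or more lists. A pair of alternatives was chosen after seeing the data. A score of at least 16 in both lists left all 33964 control peaks but only 23349 of the 30993 knockdown peaks, so retention could not rise. With it, retention was 42.1%, the new share 38.8%, the median log2 ratio −0.053, and the ATAC and HDAC1 differences 36.3 and 38.9 points. Standardised for HDAC3 strength, the difference in ATAC retention was 7.22 points. The filter on regions in 9 or more lists counts both HDAC3 lists and so takes out retained peaks more readily than unshared ones. The cause of these shifts was not tested. The comparison of gene starts with other peaks was not run, as no hg19 annotation was used. Depth limits single sites, since a median peak held 33 or 31 tags, and 1 library per group leaves the spread between cultures unknown.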
